A study of Mus musculus with 24 samples.

Results

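Primary cultures of mouse fetal midbrain kept for 48 h at 21% O2 were set against primary cultures of fetal cortex that carry the labels 48 h and 21% O2. The 6 arrays of this comparison, 3 from midbrain and 3 from cortex, were taken by their labels from the 24 arrays of the series. All cells came from C57Bl/6 embryos at embryonic day 14, with no genetic change named in the labels, and were held in expansion medium, which favours dividing neural progenitors over differentiation. Only the 3% O2 cultures received a hypoxic gas mixture; 21% O2 is the ambient level. RNA for each array came from a well of a 6-well plate and was hybridised to a whole-transcript mouse gene array. The labels do not say whether the 3 samples of a group came from separate embryos or cultures. The p-values therefore measure variation among arrays only, pooled over all 24, part or all of which may be technical. Beside this comparison, 2 others are used: the same regions at 3% O2 (6 other arrays), and the same midbrain arrays against cortex labelled 13 d at 21% O2 (3 other arrays). For some lists and genes, values on the midbrain 13 d arrays at 21% O2, which were in another array run, are also given. The differences from those arrays were not tested.

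In the embryo, the midbrain and the cortex are set apart early by transcription factors. Otx2, En1, En2, Pax3, Pax7 and the Irx genes pattern the midbrain. GATA, TFAP2, LHX, EBF and BARHL factors then mark its inhibitory and excitatory neurons, while a small ventral group becomes dopaminergic. The cortex is patterned by Emx and Lhx2 factors, and its excitatory neurons carry Tbr1, Fezf2 and the NeuroD factors, whereas DLX factors mark the interneurons that arrive from the ventral forebrain. In a bulk array, fewer cells of a type and less RNA per cell cannot be told apart.

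The values are normalized log2 signals. No source used here gives the normalization method, so each difference is relative to the typical gene of the array. Array medians lay between 7.35 and 7.42. The labelled culture times of the cortex arrays did not order with those of midbrain. The cortex arrays labelled 48 h at 21% O2 correlated at 0.982 to 0.99 with the mean of midbrain 13 d and at 0.923 to 0.931 with the mean of midbrain 48 h, across 23410 probe sets. The cortex arrays labelled 13 d at 21% O2 correlated at 0.971 to 0.974 with midbrain 48 h and at 0.95 to 0.951 with midbrain 13 d. Cortex times are therefore given as labelled, and values against the cortex arrays labelled 13 d stand beside the main ones. Whether the labelled times are those of the cortex cultures, or were exchanged between the cortex groups, was not tested. If they were exchanged, region and culture time cannot be told apart in the differences from cortex labelled 48 h, those of neuron, glial and hypoxia genes included. Within the cortex group labelled 48 h, replicate 1 stood apart, with correlations of 0.986 and 0.992 to the other two. It had 6.2 for Enpp6, an oligodendrocyte gene, where replicates 2 and 3 had 10.01 and 9.92. Among the midbrain arrays, replicate 3 had 10.89 for Dcn, a fibroblast matrix gene, against 7.63 and 7.18 in replicates 1 and 2. Enpp6 and Dcn were named after their values were seen. For several lists and genes, values without one of these arrays are given beside the value with it. Without cortex replicate 1, Enpp6 was at -3.70, against -2.44 with it.

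Midbrain and cortex cultures differed widely. Of 23410 probe sets with a gene symbol, 5690 (24.3%) were higher and 7138 (30.5%) were lower in midbrain 48 h than in cortex labelled 48 h, at an adjusted p under 0.05 in limma with Benjamini-Hochberg adjustment. The larger differences leaned to the midbrain side: 499 probe sets were higher and 258 lower by at least 2 on the log2 scale, and 26 were higher and 1 lower by at least 4. The median difference over all probe sets was -0.02. Of all tested probe sets, 25.1% lay higher and 31.2% lower in midbrain with no overlap between the 3 and 3 arrays.

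The gene furthest apart was Tfap2b, a transcription factor of midbrain inhibitory neurons. Its values were 11.84, 11.87 and 11.82 in midbrain 48 h, against 6.02, 6.01 and 6.15 in cortex labelled 48 h. The groups were separated by far more than their spread, a log2 difference of 5.78 ± 0.05 (SE, n = 3 and 3; adjusted p = 2.5e-24). Its relative Tfap2d had 10.67 on all 3 midbrain arrays, against 5.8, 5.97 and 5.82 in cortex (difference 4.81 ± 0.09, adjusted p = 3e-19). Tfap2a, of the same family and used as a neural crest marker, had 9.3, 9.19 and 9.12 in midbrain, against 6.41, 6.3 and 6.44 in cortex. All 3 TFAP2 genes were near the low end of the scale on every cortex array labelled 48 h. On the midbrain 13 d arrays at 21% O2, the means of Tfap2b and Tfap2d were also low, at 6.06 and 5.8.

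Of 28 measured factors of midbrain neuron lineages, 21 were higher in midbrain, none was lower and 7 did not pass, with a median difference of 1.48. The mean of the list was 8.92 in midbrain 48 h, 7.01 in cortex labelled 48 h and 7.02 in midbrain 13 d at 21% O2. Gata3, which works with Tal1 and Gata2 to specify inhibitory neurons, had 11.14, 11.17 and 11 in midbrain 48 h, against 6.74, 6.35 and 6.5 in cortex labelled 48 h. Its difference was 4.57 ± 0.11 (adjusted p = 2.1e-17), and those of Tal1 and Gata2 were 1.2 and 1.08. Lhx9, a LIM factor of dorsal midbrain neurons, had 11.04, 11.15 and 11.21 in midbrain, against 6.74, 6.67 and 6.67 in cortex (difference 4.44 ± 0.08, adjusted p = 3e-19). The LIM factors Lhx1 and Lhx5 were higher by 3.74 and 2.62. Sox14, which marks GABA neurons of the caudal diencephalon and midbrain, had 10.77, 10.47 and 10.63 in midbrain, against 7.36, 7.44 and 7.29 in cortex (difference 3.26 ± 0.09).

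The early B-cell factor genes, which act in newly born neurons, and the BARHL and POU4 genes also separated without overlap. Ebf2 had 10.26, 10.05 and 10.16 in midbrain 48 h, against 5.93, 6.35 and 6.15 in cortex labelled 48 h (difference 4.01 ± 0.08, adjusted p = 3.7e-18). Ebf3 differed by 3.18 and Ebf1 by 2.07. Barhl2 and Barhl1, factors of excitatory neurons of the dorsal brainstem and diencephalon, were higher by 3.01 and 2.66. Pou4f1, a factor of tectal and sensory projection neurons, had 9.08, 8.54 and 9 in midbrain, against 6.52, 6.71 and 6.42 in cortex (difference 2.32 ± 0.13). Members of the list that did not pass were Helt (difference -0.04), Isl1 (-0.11), Phox2a (-0.23), Nkx6-1 (0.18), Evx1 (0.14), Sim2 (-0.06) and Gbx2 (0.33). Isl1 and Phox2a mark ocular motor neurons, and all 6 arrays lay between 6.05 and 6.61 for both genes. Leaving out 1 array brought Phox2a (-0.30 without midbrain replicate 1), Gbx2 (0.47 without midbrain replicate 3) and Evx1 (0.21 without cortex replicate 2) past the threshold.

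Patterning factors of the midbrain and of its border with the hindbrain, the isthmus, followed with smaller differences. Of 33 measured, 26 were higher, 3 lower and 4 did not pass, with a median of 0.81. The mean of the list was 8.96 in midbrain 48 h, 7.88 in cortex labelled 48 h and 8.40 in midbrain 13 d at 21% O2. Otx2, needed to form the midbrain, had 11.54, 11.7 and 11.78 in midbrain 48 h, against 9.46, 9.2 and 9.21 in cortex labelled 48 h (difference 2.38 ± 0.22, adjusted p = 1.1e-08). Pax7, a factor of the dorsal midbrain, had 9.7, 9.67 and 9.69 in midbrain, against 7.32, 7.29 and 7.46 in cortex (2.33 ± 0.10). En2, an engrailed factor that grades the tectum, had 10.09, 9.8 and 9.8 in midbrain, against 8.04, 7.42 and 7.54 in cortex (2.23 ± 0.31, adjusted p = 2.6e-06). The cortex values of En1 and En2 were highest on replicate 1 (8.25 and 8.04).

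Mab21l2 and Dmbx1, both of the developing tectum, were higher by 4.03 ± 0.47 and 2.58 ± 0.11. Mab21l1, among the 12 largest differences, had 11.39, 11.1 and 11.26 in midbrain 48 h, against 7.03, 6.2 and 6.71 in cortex labelled 48 h. Pax5, Pax3, Irx1, Irx2, Irx3 and Irx5 differed by 1.96, 1.03, 1.48, 1.91, 1.21 and 1.42. Of the signals of the isthmus, Wnt1 was higher by 0.18, Fgf17 by 0.21 and Fgf15 by 1.11, while Fgf8 did not pass at -0.11. Fgf17 did not pass without midbrain replicate 2, midbrain replicate 3 or cortex replicate 3. The 3 lower members were Nkx2-2 (difference -1.70), a ventral factor that also marks oligodendrocyte precursors, Meis1 (-0.42) and Otx1 (-0.27).

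**Figure D1:**
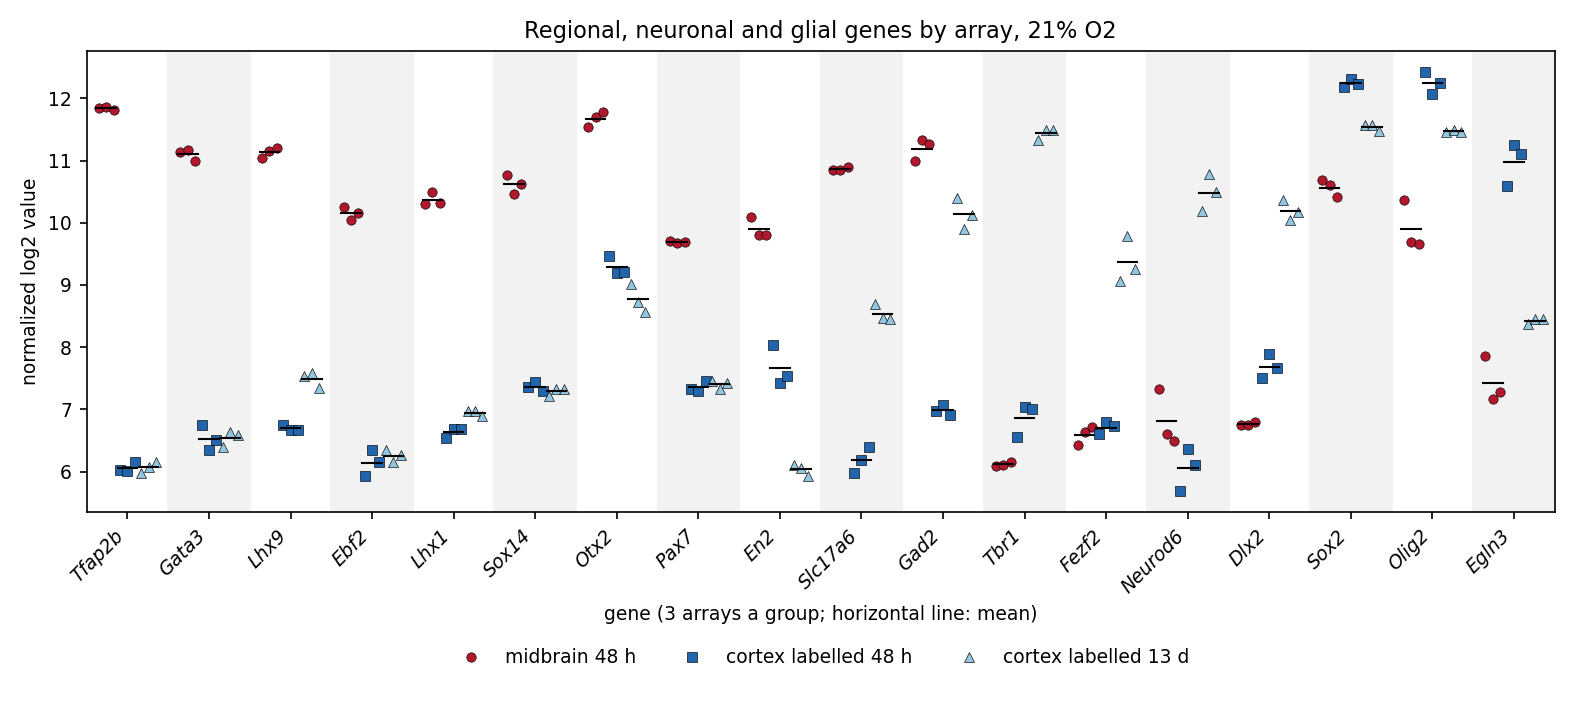
Normalized log2 values of 18 genes on each of 9 arrays at 21% O2: midbrain 48 h (circles), cortex labelled 48 h (squares) and cortex labelled 13 d (triangles), with a line at each mean of 3 arrays. Among the 3 groups drawn, midbrain lineage factors stand near 10 to 12 in midbrain 48 h alone. Tbr1, Fezf2, Neurod6 and Dlx2 stand high only in cortex labelled 13 d.

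Genes of dopaminergic neurons, the midbrain cells lost in Parkinson's disease, showed small differences. Of 22 measured, 14 were higher (63.6%), 1 lower (4.55%) and 7 did not pass, with a median of 0.53. These shares stand beside 24.3% and 30.5% of all probe sets. The list mean was 7.81 in midbrain 48 h, 7.21 in cortex labelled 48 h and 7.32 in midbrain 13 d at 21% O2. Th, the rate-limiting enzyme of dopamine synthesis, had 7.7, 7.63 and 7.31 in midbrain 48 h, against 6.77, 6.89 and 6.66 in cortex labelled 48 h (difference 0.78 ± 0.11, adjusted p = 4.4e-06). Slc18a2 and Slc6a3, the vesicle and membrane dopamine transporters, differed by 1.00 and 0.45, the second by 0.27 without midbrain replicate 1. For all 3 genes midbrain replicate 3 was the lowest of its group, and for Slc6a3 it lay within the cortex values (6.83 in midbrain replicate 3, against 6.74 to 6.92 in cortex). Nr4a2, a factor for dopamine neurons that cortical neurons also make, had 9.88, 10.28 and 9.8 in midbrain, against 8.87, 8.29 and 8.56 in cortex (1.41 ± 0.13). Pitx3 (-0.15), Lmx1b (0.16), Aldh1a1 (0.11), Ddc (0.03) and Gch1 (0.09) did not pass. The lower member was Ntn1, a guidance cue, at -1.04.

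HOX and other hindbrain genes, which would mark tissue from behind the midbrain, mostly did not separate the groups at 21% O2. Of 22 measured, none was higher and 2 were lower (9.09%), beside 24.3% and 30.5% of all probe sets. The 2 were Hoxd1 (-0.14) and Gbx1 (-0.20), and neither passed without cortex replicate 1, midbrain replicate 1 or cortex replicate 3. At 3% O2, 9 of the 22 were lower in midbrain 48 h than in cortex labelled 48 h and none higher, with a median of -0.13. Hoxa2, the most anterior HOX gene, had 5.94, 6 and 5.78 in midbrain 48 h, against 5.81, 5.74 and 5.59 in cortex labelled 48 h (difference 0.20, adjusted p = 0.18). Atoh1 and Ptf1a, of rhombic lip and cerebellar lineages, differed by 0.10 and -0.12 and did not pass.

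Genes that define the cortex did not form a mirror image of the midbrain pattern. Of 18 cortical patterning and progenitor factors, 3 were higher in midbrain, 7 were lower and 8 did not pass, with a median of 0.01. The shares were 16.7% higher and 38.9% lower, beside 24.3% and 30.5% of all probe sets. Emx1, Emx2 and Lhx2, the defining factors of cortical progenitors, differed by 0.13, 0.31 and 0.54 and did not pass; without cortex replicate 1 Lhx2 was at 0.31. Emx1 had 7.51, 7.83 and 7.85 in midbrain 48 h, against 7.56, 7.69 and 7.55 in cortex labelled 48 h, and these ranges overlap; without midbrain replicate 1 it passed at 0.24. The lower members were Nr2e1 (-2.85), Dmrta1 (-2.64), Hes1 (-1.73), Pax6 (-1.02), Lmo4 (-0.60), Dmrta2 (-0.24) and Neurog1 (-0.23), of which Dmrta2 did not pass without midbrain replicate 1, midbrain replicate 2 or cortex replicate 1. The higher ones were Lef1 (3.86), a WNT effector that is also strong in the dorsal midbrain, Nr2f2 (1.57) and Nr2f1 (0.28), the last of which did not pass without cortex replicate 1 (0.17).

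Tbr1, the factor of early-born cortical neurons, had 6.09, 6.11 and 6.16 in midbrain 48 h, against 6.56, 7.03 and 7 in cortex labelled 48 h (difference -0.74 ± 0.10, adjusted p = 1.3e-06). On the cortex arrays labelled 13 d it had 11.33, 11.5 and 11.49. Fezf2, which specifies deep-layer projection neurons, had 6.43, 6.63 and 6.72 in midbrain, against 6.6, 6.79 and 6.73 in cortex labelled 48 h, and did not pass (-0.11, adjusted p = 0.59). The defining markers of cortical excitatory neurons were near the low end of the scale on the cortex arrays of this comparison. Of 28 measured cortical projection neuron genes, 16 were higher in midbrain (57.1%) and 5 lower (17.9%), with a median of 0.59. These shares stand beside 24.3% and 30.5% of all probe sets. Among the higher ones were genes that many kinds of neuron share, such as Bcl11b (1.68), Bcl11a (1.36), Foxp2 (4.28) and Reln (3.18), and by less Neurod6 (0.75, or 0.49 without midbrain replicate 1). Slc17a6, the vesicular glutamate transporter of most midbrain excitatory neurons, had 10.85, 10.85 and 10.9 in midbrain, against 5.97, 6.19 and 6.39 in cortex (4.68 ± 0.10, adjusted p = 5.9e-18). Slc17a7, the transporter that prevails in mature cortex, was lower (-0.53). The other lower members were Sox5 (-1.10), Rorb (-0.68) and Pou3f3 (-0.31).

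Ventral forebrain and interneuron genes split in direction. Of 24 measured, 8 were higher in midbrain, 9 lower and 7 did not pass, with a median of -0.14. These are shares of 33.3% and 37.5%, beside 24.3% and 30.5% of all probe sets. The lower ones were Dlx2 (-0.92), Dlx1 (-0.67), Gsx2 (-0.96), Gsx1 (-0.88), Lhx6 (-0.34), Nkx2-1 (-0.32) and Dlx5 (-0.27), of which Nkx2-1 (-0.21 and -0.23) and Dlx5 did not pass without cortex replicate 1 or without midbrain replicate 1, with Olig1 (-2.72) and Olig2 (-2.34). Among the higher ones was Gad2, which makes GABA and had 10.99, 11.33 and 11.26 in midbrain 48 h, against 6.97, 7.07 and 6.91 in cortex labelled 48 h (4.21 ± 0.11, adjusted p = 1.2e-16). Gad1 was higher by 2.85, Slc32a1, the vesicular GABA transporter, by 2.05, and Sst and Npy, peptides of inhibitory neurons, by 1.99 and 1.92. The other higher members were Ebf1 (2.07), Adarb2 (1.64) and Maf (1.31).

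Genes shared by most neurons were higher in midbrain. Of 29 measured neuron genes, 28 were higher and 1 was lower, with a median of 2.70. Their mean signal was 11.42, 11.43 and 11.33 on the midbrain 48 h arrays, against 8.85, 9.11 and 9.09 on the cortex arrays labelled 48 h. On the midbrain 13 d arrays at 21% O2 it was 8.47, 8.37 and 8.43. Tubb3, the neuronal tubulin, had 12.17, 11.49 and 11.79 in midbrain, against 7.82, 8.44 and 8.19 in cortex (3.66 ± 0.20, adjusted p = 3.5e-12). Syt4 and Syt1, synaptic vesicle proteins, were higher by 4.30 and 3.07, and Celf4, a neuronal RNA-binding protein, by 3.32. Map2, a dendritic protein, was higher by 0.74. The lower member was Syn2 (-0.29), named because it was the exception. It did not pass without midbrain replicate 3, cortex replicate 2 or cortex replicate 3.

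Other neuronal groups followed. Of 30 ionotropic transmitter receptors, 24 were higher and 2 lower, with a median of 1.19. Gabrb2, a GABA receptor subunit, had 11.03, 11.08 and 11.07 in midbrain 48 h, against 7.16, 7.66 and 7.65 in cortex labelled 48 h (3.57 ± 0.10). Grin2b, an NMDA receptor subunit, and Chrnb2, a nicotinic subunit, were higher by 3.27 and 3.03. Among 35 ephrin and axon guidance genes, 27 were higher and 7 lower, with Slit2 (2.93), Epha7 (2.92), Sema3f (2.26) and Ephb1 (1.69) the firmest. Cdh8 had 10.43, 10.52 and 10.41 in midbrain, against 6.65, 7 and 6.9 in cortex (3.61 ± 0.08), and 14 of 22 cadherins and protocadherins were higher and 2 lower. Of 24 neuropeptide genes, 16 were higher (66.7%) and 2 lower (8.33%), led by Tac1 (3.05), the substance P gene, and Adcyap1 (3.01). Npas4, an activity-induced factor of neurons, was higher by 3.41. The 20 immediate early genes as a list had 8 higher (40%), 2 lower (10%) and 10 not passed, with a median of 0.01. These shares stand beside 24.3% and 30.5% of all probe sets. Of 17 imprinted genes 11 were higher (64.7%) and 4 lower (23.5%). Meg3, a neuronal non-coding RNA, and Zdbf2 were higher by 3.63 and 3.60.

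**Figure D2:**
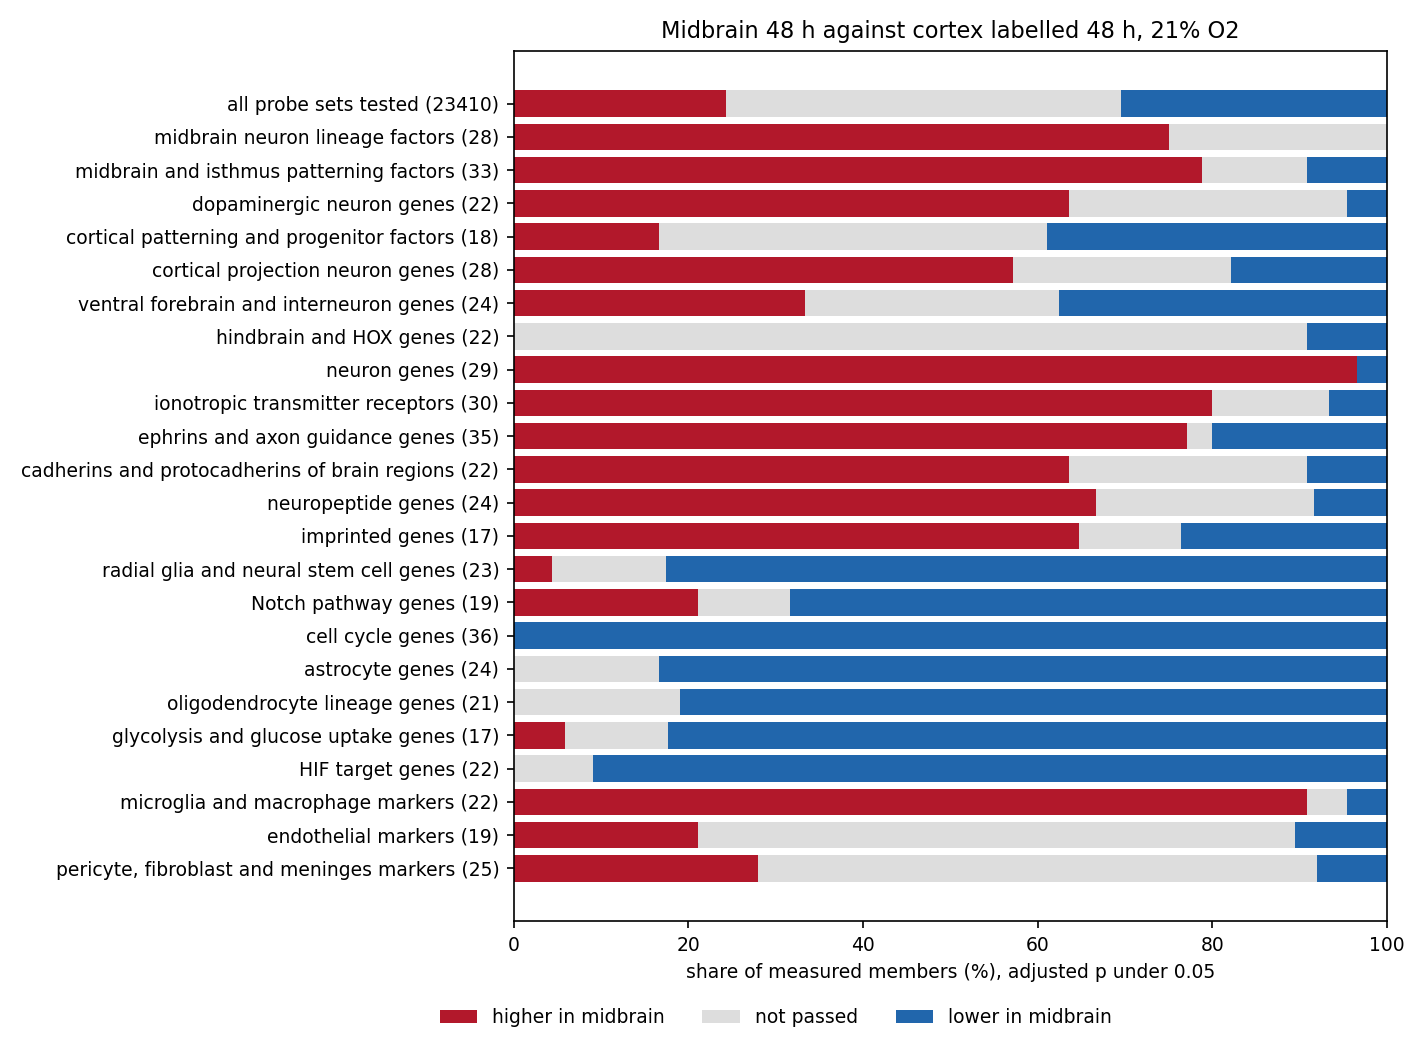
Share of each gene list that was higher (red, left), not passed (grey) or lower (blue, right) in midbrain 48 h than in cortex labelled 48 h at 21% O2, with the number of measured members in brackets and all 23410 probe sets as the top bar. Neuron genes and midbrain lineage factors fall on the higher side, while 36 of 36 cell cycle genes and most glial and HIF target genes fall on the lower side.

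Progenitor and division genes were lower in midbrain. Of 36 measured cell cycle genes all 36 were lower, from -2.20 to -0.38, with a median of -1.55. The list mean was 8.98 in midbrain 48 h, 10.45 in cortex labelled 48 h and 9.96 in midbrain 13 d at 21% O2. Mki67, made only by cycling cells, had 10.22, 9.74 and 10.13 in midbrain 48 h, against 11.68, 11.61 and 11.63 in cortex labelled 48 h (-1.61 ± 0.10, adjusted p = 5.8e-11). The mitotic genes Kif11, Foxm1, Bub1b and Birc5 were at -2.20, -2.08, -2.02 and -1.99. Of 20 cell cycle inhibitors and p53 targets, 17 were lower and 1 higher, with Cdkn2c at -2.77 and Ccng1 at -1.35. Most members of this mixed list thus lay on the same side as the genes of division.

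Of 23 radial glia and neural stem cell genes, 19 were lower, 1 was higher and 3 did not pass, with a median of -1.02. The list mean was 9.52 in midbrain 48 h, 10.67 in cortex labelled 48 h and 10.66 in midbrain 13 d at 21% O2. Sox2, which keeps neural progenitors undifferentiated, had 10.69, 10.6 and 10.41 in midbrain 48 h, against 12.19, 12.32 and 12.24 in cortex labelled 48 h (-1.68 ± 0.07, adjusted p = 5.1e-14). Nes, the intermediate filament of progenitors, was at -1.84, Sox9 at -2.71 and Ednrb at -2.44. Fabp7, of radial glia, was lower by less (-0.27). The higher member was Msi1 (0.49, or 0.29 without cortex replicate 1), an RNA-binding protein of progenitors, named as the exception.

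Most genes of the Notch pathway, which keeps progenitors from becoming neurons, were lower. Of 19 measured, 13 were lower, 4 higher and 2 did not pass, with a median of -1.73. The list mean was 8.45 in midbrain 48 h, 9.5 in cortex labelled 48 h and 9.69 in midbrain 13 d at 21% O2. The receptor Notch1 had 9.9, 9.33 and 9.52 in midbrain 48 h, against 11.21, 11.6 and 11.51 in cortex labelled 48 h (-1.86 ± 0.12). The modifiers Lfng and Mfng were at -2.38 and -1.64. The ligand Jag2 was higher by 1.66. In the other pathways the calls split. Of all probe sets, 24.3% were higher and 30.5% lower. The shares higher and lower were 41.9% and 32.3% for WNT genes and 15.4% and 46.2% for SHH genes. They were 24.2% and 48.5% for FGF and EGF genes, and 20% and 35% for BMP genes, the last near those of all probe sets. WNT genes had 13 higher and 10 lower of 31, with the effectors Lef1 and Tcf7l2 (1.69) higher, and Tcf7l1 (-1.85) and the ligand Wnt7a (-1.90) lower. SHH pathway genes had 2 higher and 6 lower of 13, including the transducer Smo (-1.60) and the receptor Ptch1 (-1.26). FGF and EGF genes had 8 higher and 16 lower of 33, with Egfr at -1.87 and its downstream factors Etv1 and Etv4 at -1.87 and -1.62, while Fgf13, an intracellular neuronal member, was higher by 2.44. BMP genes had 4 higher and 7 lower of 20, or 3 and 10 without cortex replicate 1. The receptor Bmpr1b was at -2.49 and the target Id3 at -2.54.

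Glial genes were lower in midbrain, and the cortex group was uneven there. Of 21 oligodendrocyte lineage genes, 17 were lower and none higher, with a median of -2.34. The mean of the list was 8.06, 8.01 and 7.83 on the midbrain 48 h arrays, against 9.15, 10.34 and 10.23 on the cortex arrays labelled 48 h, of which the first is replicate 1. Without that array 19 were lower, with a median of -2.50. On the midbrain 13 d arrays at 21% O2 the list mean was 9.6, 9.54 and 9.64. Olig2, a factor of the lineage, had 10.37, 9.69 and 9.66 in midbrain, against 12.43, 12.07 and 12.25 in cortex (-2.34 ± 0.14, adjusted p = 2.3e-11). Pdgfra, the receptor of oligodendrocyte precursors, was at -2.84. Mbp, of myelin, had 8.29, 8.4 and 8.1 in midbrain, against 7.26, 9.68 and 9.44 in cortex, and did not pass (-0.53, adjusted p = 0.27); it passed at -1.29 without cortex replicate 1.

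Both Cnp and Gjc3 were among the 12 most lowered genes of the comparison. Cnp, an enzyme of myelinating cells, had 8.75, 8.6 and 8.46 in midbrain 48 h, against 11.33, 12.3 and 12.07 in cortex labelled 48 h (-3.30 ± 0.21). Gjc3, a connexin of oligodendrocytes, had 7.34, 7.3 and 7.05 in midbrain, against 11.46, 10.16 and 10.79 in cortex (-3.57 ± 0.35). Here cortex replicate 1 was the highest of its group, unlike in most of the list.

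Of 24 astrocyte genes, 20 were lower, none was higher and 4 did not pass, with a median of -1.50. The list mean was 8.62 in midbrain 48 h, 10.11 in cortex labelled 48 h and 10.64 in midbrain 13 d at 21% O2. Mlc1, a membrane protein of astrocytes, had 7.76, 7.57 and 7.44 in midbrain 48 h, against 10.39, 10.98 and 10.8 in cortex labelled 48 h (-3.13 ± 0.11, adjusted p = 5.6e-15). Acsbg1 and Mfge8 were at -2.33 and -2.67, and Slc1a3, the glial glutamate transporter, at -2.43. Gfap, the astrocyte filament, had 6.01, 6.13 and 6.14 in midbrain, against 6.06, 8.14 and 8.01 in cortex, so that its difference (-1.31 ± 0.35, adjusted p = 0.003) rested on cortex replicates 2 and 3. That SE and adjusted p use the spread pooled over all 8 groups, not that of these uneven cortex arrays. Without replicate 1 Gfap was at -1.99, and the list had 21 lower members and a median of -1.68. With only the 6 compared arrays in the fit, the list had 19 lower members. Mt2, a metallothionein that astrocytes make in quantity, was the most lowered gene of all, with 9.19, 8.54 and 8.61 in midbrain, against 12.33, 13.06 and 12.96 in cortex (-4 ± 0.20). Bcan and Sparc, matrix proteins of glia, were at -2.81 and -1.69. Of 29 matrix genes 11 were lower (37.9%) and 6 higher (20.7%), beside 30.5% and 24.3% of all probe sets. Without midbrain replicate 3, or with only the 6 compared arrays in the fit, 10 were lower and 1 higher.

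**Figure D3:**
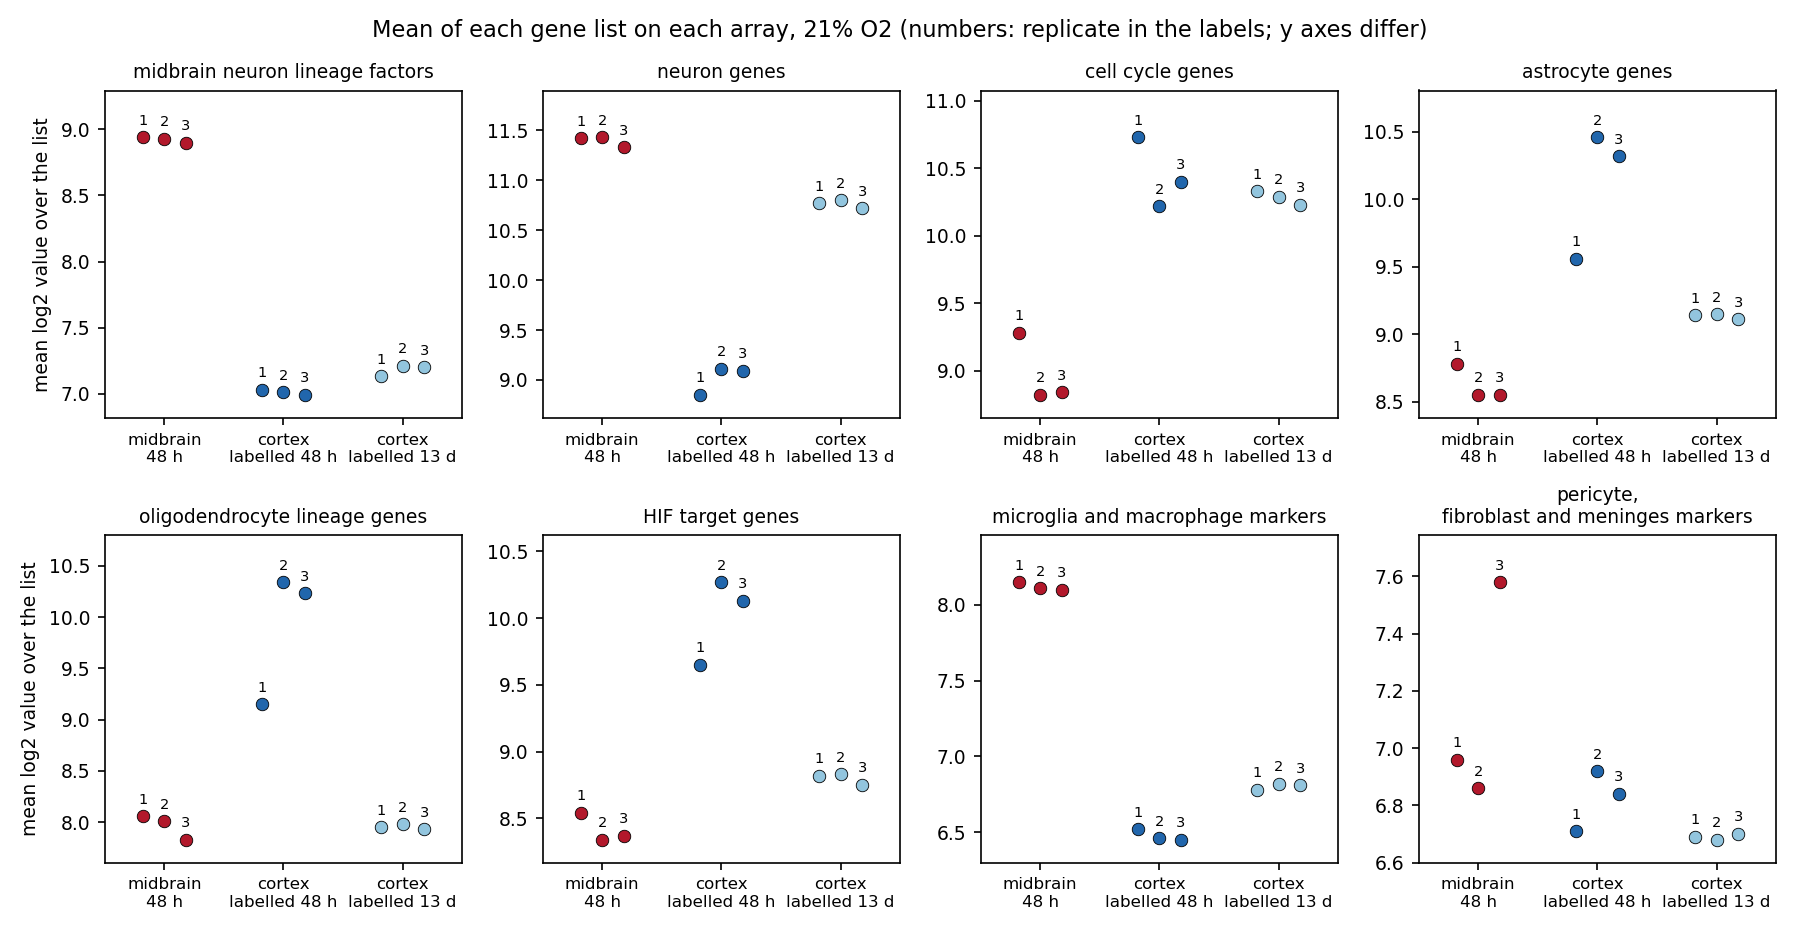
Mean log2 value of 8 gene lists on each array at 21% O2, with the replicate number above each point and a y axis of its own for each list. Cortex labelled 48 h replicate 1 lies below replicates 2 and 3 for astrocyte, oligodendrocyte and HIF target genes and above them for cell cycle genes, and midbrain replicate 3 lies above the rest for fibroblast markers (7.58).

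Hypoxia-inducible factor (HIF) switches on genes of oxygen supply and anaerobic sugar use when oxygen is low, and prolyl hydroxylases mark it for destruction when oxygen is present. Both groups here were labelled 21% O2. Of 22 HIF target genes, 20 were lower in midbrain 48 h than in cortex labelled 48 h, none was higher and 2 did not pass, with a median of -1.48. Their mean was 8.54, 8.34 and 8.37 on the midbrain arrays, against 9.65, 10.27 and 10.13 on the cortex arrays. On the midbrain 13 d arrays at 21% O2 it was 9.90, 10.04 and 10.10, in the range of those cortex arrays. Without cortex replicate 1, 21 were lower, with a median of -1.64. Egln3, a prolyl hydroxylase that HIF itself induces, had 7.85, 7.16 and 7.28 in midbrain, against 10.59, 11.25 and 11.1 in cortex (-3.55 ± 0.21, adjusted p = 1.7e-11). Adm, the vessel-relaxing peptide adrenomedullin, had 6.73, 6.93 and 6.87 in midbrain, against 9.95, 10.03 and 9.92 in cortex (-3.12 ± 0.16). Fam162a and Ak4, of mitochondria, were at -2.80 and -2.40.

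Of 17 genes of glycolysis and glucose uptake, 14 were lower and 1 was higher, with a median of -1.36. The list mean was 10.05 in midbrain 48 h, 11.40 in cortex labelled 48 h and 11.38 in midbrain 13 d at 21% O2. Slc16a3, the lactate exporter, had 7.46, 7.66 and 7.79 in midbrain 48 h, against 10.43, 11.33 and 11.23 in cortex labelled 48 h (-3.36 ± 0.30, adjusted p = 6.7e-09). Pdk1, a kinase that inactivates pyruvate dehydrogenase, was at -3.06, Ldha, which makes lactate, at -1.36, and Pfkl at -2.30. Aldoc, at -3.06, is both a glycolytic enzyme and an astrocyte marker. The part of glial content in these differences was not tested. The higher member was Pfkp (1.26), a phosphofructokinase named as the exception. Ppp1r3c, which directs glycogen storage, had 6.65, 5.9 and 6.06 in midbrain, against 8.99, 10.89 and 10.58 in cortex (-3.95 ± 0.32). The SD was 0.39 among these midbrain arrays and 1.02 among these cortex arrays, while the SE pools all 8 groups.

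The 250 bases before the start of each HIF target and glycolysis gene were searched for ACGTG on both strands. These letters are one form of the core of the hypoxia response element. The other form, GCGTG, was not searched, so a window without ACGTG can still hold a core. Of 27025 genes in the promoter table, 16.6% held ACGTG, as did 10 of 18 HIF target genes and 8 of 16 glycolysis genes with a window. A match says only that the letters are present. The lists were chosen as HIF targets and glycolysis genes, and members were counted whether called or not. Their shares therefore say nothing of the difference between midbrain and cortex. Ldha, Slc16a3 and Fam162a held ACGTG within the last 120 bases before the start and Egln3 further upstream. The windows of Adm, Ak4, Aldoc, Pdk1 and Pfkl did not hold ACGTG, and were not searched for GCGTG. Those 3 stretches are shown as examples, read 5′ to 3′ in the direction of the gene from RefSeq (GRCm38.p6), with the matched letters of either strand in capitals.
Slc16a3, chr11:120948947-120949066, plus strand: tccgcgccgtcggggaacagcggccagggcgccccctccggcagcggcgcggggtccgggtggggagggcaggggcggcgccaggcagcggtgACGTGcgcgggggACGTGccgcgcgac
Ldha, chr7:46845684-46845803, plus strand: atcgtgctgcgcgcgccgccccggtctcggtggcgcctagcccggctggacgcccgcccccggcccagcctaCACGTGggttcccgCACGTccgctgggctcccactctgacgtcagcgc
Fam162a, chr16:36071562-36071681, minus strand: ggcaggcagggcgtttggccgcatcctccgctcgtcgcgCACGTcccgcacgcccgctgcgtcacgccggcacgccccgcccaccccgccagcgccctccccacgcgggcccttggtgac
In Ldha the first capitals hold overlapping matches on the plus and minus strands.

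Immune genes of the brain were higher in midbrain. Of 22 microglia and macrophage markers, 20 were higher, 1 was lower and 1 did not pass, with a median of 1.51. The mean of the list was 8.15, 8.11 and 8.10 on the midbrain 48 h arrays, against 6.52, 6.46 and 6.45 on the cortex arrays labelled 48 h. On the midbrain 13 d arrays at 21% O2 it was 6.48, 6.53 and 6.45. Lyz2, the lysozyme of macrophages, had 10.99, 11.34 and 11.2 in midbrain, against 5.91, 5.84 and 5.91 in cortex (5.29 ± 0.30, adjusted p = 9.4e-12). C1qb, a complement gene, had 9.94, 9.85 and 9.77 in midbrain, against 6.27, 6.31 and 6.12 in cortex (3.62 ± 0.18). Csf1r and Aif1, defining markers of microglia, were higher by 1.16 and 0.51. The chemokine Ccl3 (4.82) and the complement receptor C3ar1 (4.45), both made by microglia, were also among the 12 largest differences. The lower member was Sall1 (-1.58), which neural progenitors also make; it was named as the exception.

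Most markers of vessels and fibroblasts did not pass. Pecam1, a defining endothelial marker, had 6.44, 6.46 and 6.4 in midbrain 48 h, against 6.4, 6.31 and 6.28 in cortex labelled 48 h and did not pass. Of 19 endothelial markers 4 were higher and 2 lower, and without midbrain replicate 3, 2 were higher and 3 lower. Cd93, also made by myeloid cells, was lower at -1.90 ± 0.32, and between -2.33 and -1.46 when 1 array was left out. Of 25 pericyte, fibroblast and meninges markers 7 were higher (28%) and 2 lower (8%), to be read beside the same shares of all probe sets. Without midbrain replicate 3, 3 were higher and 3 lower, and in the smaller fit 4 were higher and 2 lower. Col1a1 had 7.86, 7.98 and 8.62 in midbrain, against 7.92, 8.1 and 7.9 in cortex. Ttr, the choroid plexus marker, lay between 5.62 and 5.86 on all 6 arrays. The part of fibroblasts in other differences was not tested.

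At 3% O2 the same regions were compared in 6 other arrays. There 5695 probe sets (24.3%) were higher and 8637 (36.9%) lower in midbrain 48 h than in cortex labelled 48 h. The probe sets higher at both oxygen levels numbered 4795, which is 84.3% of those higher at 21% and 84.2% of those higher at 3%. Those lower at both numbered 6306, or 88.3% of those at 21% and 73% of those at 3%. Of the 757 probe sets that differed by at least 2 at 21% O2, 754 had the same call at 3% O2. Across all probe sets the differences at the 2 levels correlated at 0.95, as a description, since probe sets are not independent.

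Of the 28 midbrain lineage factors, 20 were higher and 3 lower at 3% O2, with a median of 1.16, and of the 33 patterning factors 21 were higher and 3 lower, with a median of 0.49. The mean of the patterning list was 8.89, 8.90 and 8.90 on the midbrain arrays at 3% O2, against 8.45, 7.86 and 7.90 on the cortex arrays, of which the first is replicate 1 and stands apart. Without it, 23 patterning factors were higher and 2 lower, with a median of 0.96, and 20 lineage factors were higher and 1 lower. Tfap2b differed by 5.47 at 3% O2, Gata3 by 4.33, Lhx9 by 4.28, Ebf2 by 4.11 and Otx2 by 1.84. The difference between the oxygen levels was itself tested, and 700 probe sets (2.99%) had a more positive and 677 (2.89%) a more negative region difference at 21% O2. The sum of these calls, 1377, was unstable: it was 3084 without cortex labelled 48 h replicate 1 at 21% O2 and 752 without its replicate 3, and it ranged from 331 to 3597 over the alternatives tried. Among named genes, Ldb2, a LIM cofactor, differed by 2.97 at 21% O2 and 1.68 at 3% O2 (1.29 between them, adjusted p = 0.0028). Neurod1, a factor of young neurons, differed by 1.68 at 21% O2 and 2.72 at 3% O2 (-1.04, adjusted p = 0.0012). The Notch modifier Mfng was at -1.64 at 21% O2 and -0.42 at 3% O2, and Ldha at -1.36 and -0.53 in the same order. With only the compared arrays in the fit, Ldha did not pass this test (adjusted p = 0.058). Of 25 genes of the integrated stress response, 15 had a more positive region difference at 21% O2 and none a more negative one; at 21% O2 itself 11 were higher and 7 lower in midbrain, and at 3% O2 6 were higher and 18 lower. In that smaller fit, 10 of the 25 had a more positive difference and none a more negative one. Shmt2, of serine metabolism, was at -1.06 at 21% O2 and -1.67 at 3% O2. For Egln3 and Adm the differences at the 2 levels, -3.55 and -3.52 for Egln3 and -3.12 and -3.25 for Adm, were not separated (adjusted p = 0.97 and 0.8).

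**Figure D4:**
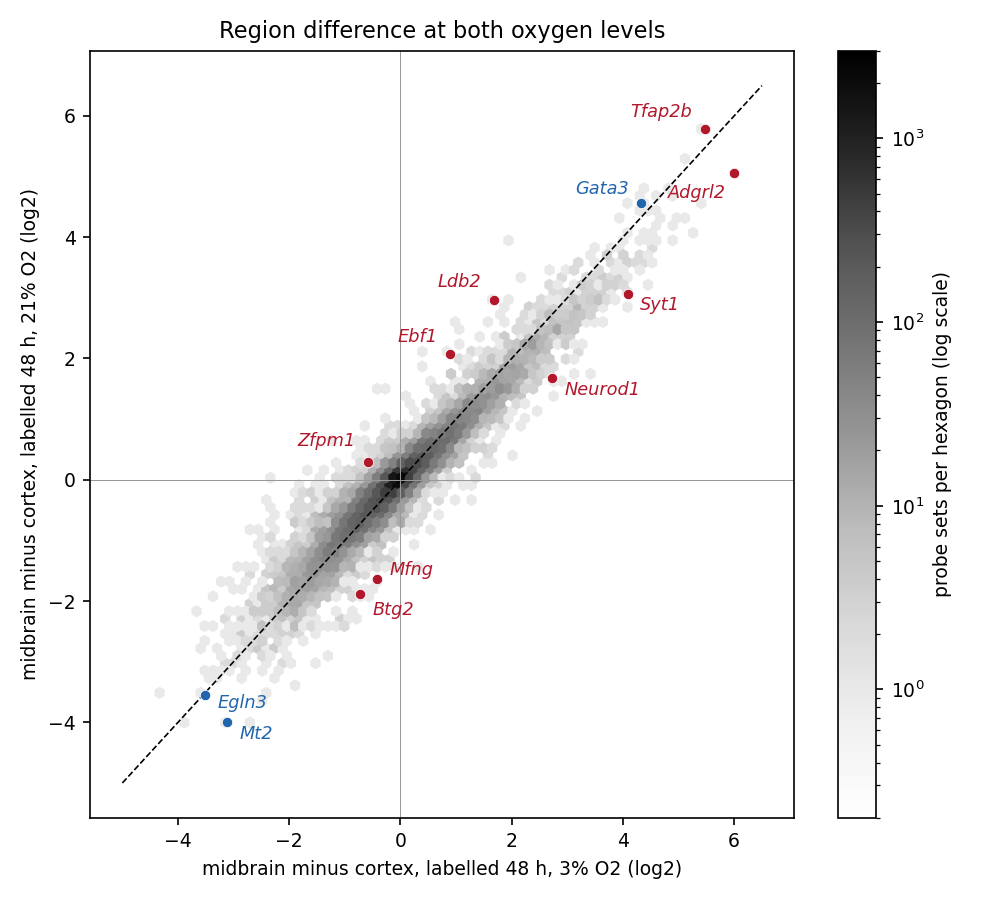
Log2 difference, midbrain 48 h minus cortex labelled 48 h, of 23410 probe sets at 21% O2 (y) and 3% O2 (x), with the number of probe sets per hexagon in grey and a dashed line of equal differences. Named genes in red passed the test of the difference between oxygen levels (Ldb2, 2.97 at 21% and 1.68 at 3%) and those in blue did not (Gata3, 4.57 and 4.33).

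Against the cortex arrays labelled 13 d, the same 3 midbrain arrays gave 4555 probe sets (19.5%) higher and 5134 (21.9%) lower, of which 85 and 26 differed by at least 2. The midbrain arrays are shared by both comparisons, so their values are set side by side only. For Tfap2b and Gata3 both cortex groups lay near the low end of the scale, with means of 6.06 and 6.07 for Tfap2b and 6.53 and 6.53 for Gata3, so that equal differences say nothing of how the cortex groups compare. Tfap2b differed by 5.78 from cortex labelled 48 h and by 5.78 from cortex labelled 13 d, Gata3 by 4.57 and 4.57, Sox14 by 3.26 and 3.33 and Pax7 by 2.33 and 2.28. In the same order, Lhx9 differed by 4.44 and 3.64, Tfap2d by 4.81 and 3.05 and Barhl2 by 3.01 and 1.77. En2 was further from cortex labelled 13 d (3.87) than from cortex labelled 48 h (2.23). Against cortex labelled 13 d, 21 of 28 lineage factors and 25 of 33 patterning factors were higher.

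Neuronal genes were closer to the cortex arrays labelled 13 d. The median over the neuron list was 2.70 against cortex labelled 48 h and 0.58 against cortex labelled 13 d; the list mean on the cortex arrays labelled 13 d was 10.77, 10.80 and 10.72. Tubb3 differed by 3.66 and 0.40, the second of which did not pass, Gad2 by 4.21 and 1.05, and Nr4a2 by 1.41 and 0.04. Cortical identity genes lay further from the cortex arrays labelled 13 d: Tbr1 was at -0.74 against cortex labelled 48 h and -5.32 against cortex labelled 13 d, Neurod6 at 0.75 and -3.68, Fezf2 at -0.11 and -2.77 and Dlx2 at -0.92 and -3.43. Of the 28 cortical projection neuron genes, 8 were higher and 14 lower in midbrain than in cortex labelled 13 d.

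Fewer glial and hypoxia genes were lower against the cortex arrays labelled 13 d. Of 21 oligodendrocyte genes 4 were lower and 2 higher there, with a median of 0.20, and of 24 astrocyte genes 12 were lower and 2 higher, with a median of -0.40. Pdgfra was at -2.84 against cortex labelled 48 h and 0.05 against cortex labelled 13 d, Cnp at -3.30 and -0.18, and Slc16a3 at -3.36 and 0.03. Of 22 HIF target genes 10 were lower and 2 higher, with a median of -0.28, and of 17 glycolysis genes 8 were lower and 2 higher, with a median of -0.38. Mt2, at -4 and -1.88, and Egln3, at -3.55 and -0.99, were lower than in either cortex group. Nkx2-2 changed side, at -1.70 and 0.76. Of the cell cycle genes, all 36 were lower in midbrain than in either cortex group, with medians of -1.55 and -1.39. Of the 22 microglia markers, 19 were higher in midbrain than in cortex labelled 13 d, and Lyz2 differed by 3.44.

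**Figure D5:**
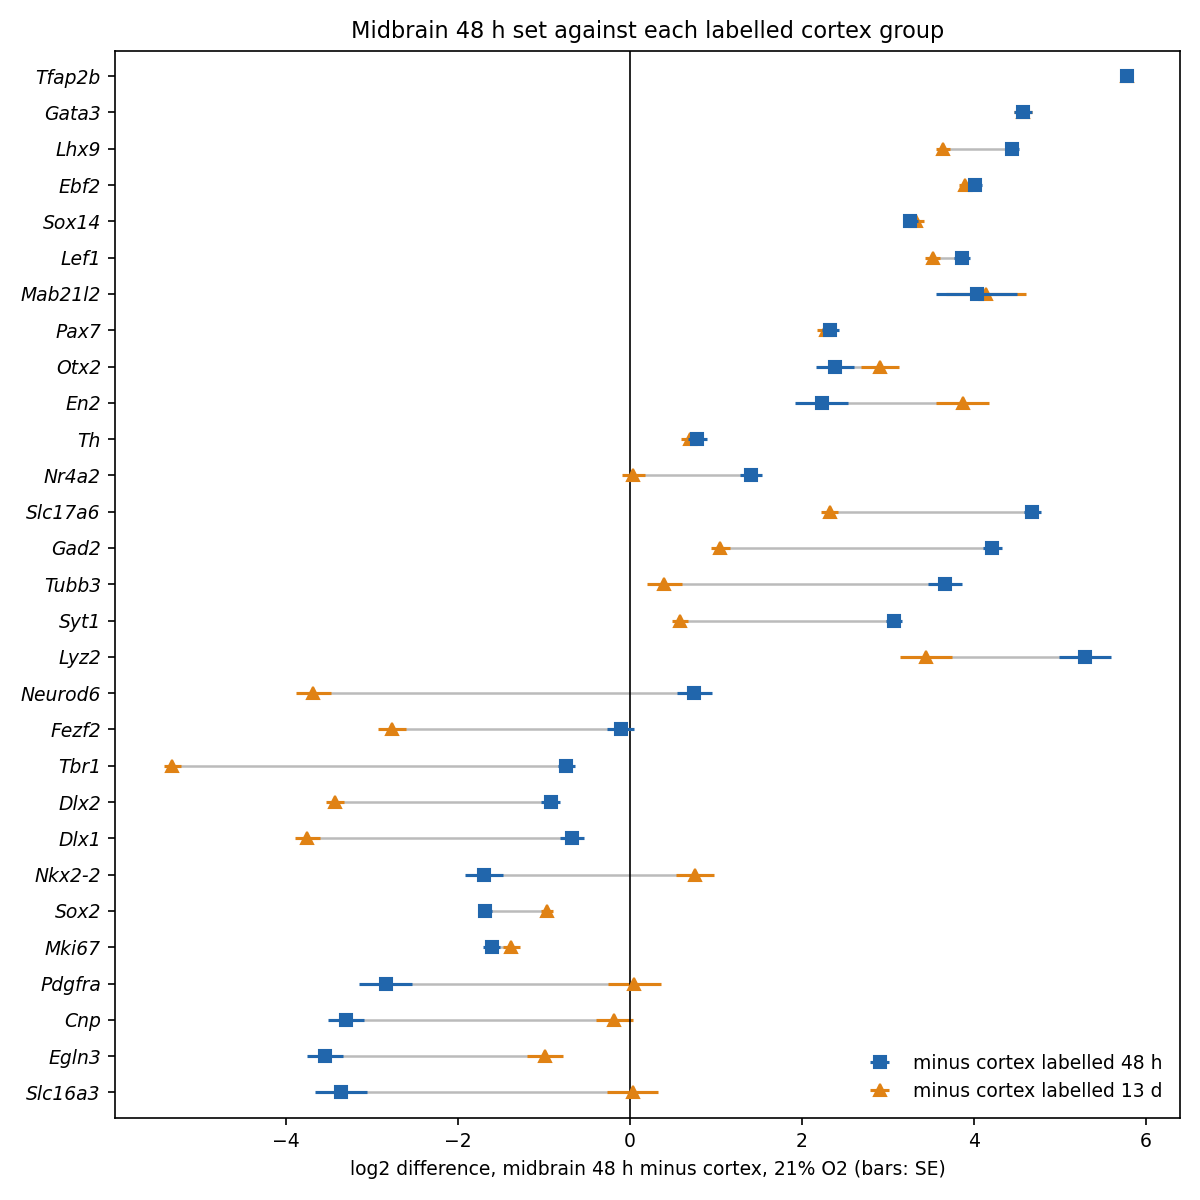
Log2 differences of 29 genes, midbrain 48 h minus cortex labelled 48 h (squares) and minus cortex labelled 13 d (triangles) at 21% O2, with bars of 1 SE; the same 3 midbrain arrays enter both. Gata3 lies at 4.57 in both, with both cortex groups near the low end of the scale, whereas Tbr1 (-0.74 and -5.32), Tubb3 (3.66 and 0.40) and Slc16a3 (-3.36 and 0.03) lie far apart.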

How the data were processed

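Gene expression was measured on 24 MoGene-1_0-st-v1 arrays, 8 groups of 3, of which this comparison uses 6. The deposited values are log2 intensities that the authors had normalized, per the labels; the background correction, normalization and summary method are not given in the sources used here, and the log2 scale was read from the values (4.65 to 14.49). The number of arrays limits the precision. Of 28856 probe sets, 23410 have a gene symbol and were tested; 21789 of these have 1 symbol (19938 genes), and only those were named. The platform annotation was checked against RefSeq, where 21698 probe sets matched by gene ID and no symbol changed.

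One model with 8 group means and 16 residual degrees of freedom was fitted with limma 3.58.1 (lmFit and eBayes) in R 4.3.3, with two-sided p-values adjusted by Benjamini-Hochberg over all tested probe sets of a comparison and a threshold of 0.05. The model was tested on simulated data. All 6 arrays were in the same array run per the array names in the labels, while the midbrain 13 d arrays at 21% and 3% O2 were in another. The members and the 38 gene lists were chosen with earlier results of these data known. Genes were named by rule: the 12 largest differences in each direction, all members of the regional lists, the 4 smallest p-values of every other list, and a panel of cell type markers; Enpp6, Dcn, Syn2, Msi1, Pfkp and Sall1 were named outside it, after their values were seen. Same-numbered midbrain and cortex arrays deviated from their group means with correlations of 0.11, 0.15 and -0.039 at 21% O2, so the numbers were not taken to pair them. Alternatives were other filters, scalings, variance models, array subsets, a replicate block and leaving out each array.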

Additional observations from a re-analysis of the deposited data

Results flagged for a closer look

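For 29 named genes, the region difference at 21% O2 differed from that at 3% O2 in limma's test of the difference itself (the interaction of region and oxygen, Benjamini-Hochberg adjusted p under 0.05). With only the compared arrays in the fit, 11 of the 29 kept the call: Syt1, Adgrl2, Mfng, Ccng1, Neurod1, Ldb2, Npy, Shmt2, Gad2, Syt4 and Tmem130. When 1 array was left out, between 18 (without cortex labelled 48 h replicate 3 at 21% O2) and 28 (without its replicate 1) kept it. In each case the value is the midbrain minus cortex difference at 21% O2 minus that at 3% O2, on the log2 scale.

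Among genes higher in midbrain, the excess was smaller at 21% O2 than at 3% O2 for Neurod1 (-1.04), Syt1 (-1.02), Adgrl2 (-0.94), Tmem130 (-0.87), Npy (-0.83), Syt4 (-0.79), Grin2b (-0.77), Gad2 (-0.63), Slit2 (-0.60), Chrnb2 (-0.45), Cdh8 (-0.43) and Bcl11a (-0.34). It was larger at 21% O2 for Ldb2 (1.29), Ebf1 (1.18), Tfap2b (0.31) and Runx1t1 (0.30).

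Among genes lower in midbrain, the deficit was larger at 21% O2 for Mfng (-1.22), Prkcq (-1.10), Ednrb (-1.03), Asrgl1 (-1.03), Ldha (-0.83), Ak4 (-0.73), Notch1 (-0.68), Wnt7a (-0.65), Egfr (-0.65), Sox9 (-0.58) and Gsx2 (-0.56). It was smaller at 21% O2 for Ccng1 (0.70) and Shmt2 (0.61). The smallest adjusted p among these genes was 5.3e-05, for Mfng, and the largest was 0.049, for Ak4.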

How the results depend on the processing

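The counts of called probe sets at 21% O2, at 3% O2 and against cortex labelled 13 d stayed within 1.5 times their values under every alternative run. At 21% O2 the count lay between 9878 (brighter probe sets only, 12738 tested) and 15103 (all 28856 probe sets), with 12828 as reported, and between 11915 and 12860 when 1 of the 6 arrays was left out. The count of probe sets whose region difference changed with oxygen, 1377, did not keep its size: it was 3597 with array weights, 331 with only the compared arrays in the fit, and between 752 and 3084 when 1 array was left out. With both number 1 arrays of cortex labelled 48 h left out, an alternative chosen after seeing the data, it was 2755. Median centring moved its split to 519 more positive and 851 more negative. The cause was not tested. With the replicate number as a block and only the compared arrays, the counts were 10649 at 21% O2 and 347 for the difference, and the replicate numbers were not taken to pair the samples. No named gene that was called changed direction under the alternatives run. Genes near the threshold crossed it, as with Dlx5, Gbx1, Hoxd1, Nkx2-1 and Dmrta2, each with a difference under 0.35 in size. Dcn did not pass when any cortex array was left out (1.94 to 2.15) and fell to 0.86 without midbrain replicate 3. Counts of list members without the arrays that stood apart, or with only the compared arrays in the fit, were also added after seeing the data. So were values on the midbrain 13 d arrays and the alternatives for lists at 3% O2. The alternatives for lists and named genes in the difference between oxygen levels were added then too.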

Other observations

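The rest of the genes with the largest differences belonged to no list. Adgrl2, an adhesion receptor of synapses, was higher in midbrain 48 h than in cortex labelled 48 h by 5.06 on the log2 scale, Ndst4, a heparan sulphate enzyme, by 4.62, Runx1t1, a transcriptional repressor, by 4.61, and Tmem130 by 4.55. Their differences from cortex labelled 13 d were 1.56, 3.05, 1.38 and 1.98. Among the genes lower in midbrain were Mmd2 (-4), Prkcq (-3.60), a protein kinase C, Scrg1 (-3.58), Cmtm5 (-3.33), Gstk1 (-3.25), a glutathione transferase, and Asrgl1 (-3.23). Against cortex labelled 13 d, Prkcq was at -0.16 and Scrg1 at 0.21, and neither passed. Without cortex labelled 48 h replicate 1, Mmd2 was at -4.59 and Scrg1 at -4.54.

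Several smaller lists remain, to be read beside 24.3% higher and 30.5% lower of all probe sets. Of 10 serotonin, noradrenaline and cholinergic genes 3 (30%) were higher in midbrain and none lower. Choroid plexus and ependymal markers had 5 higher (33.3%) and 3 lower (20%) of 15. Red blood cell genes had 3 higher (42.9%) and none lower of 7. Neural crest and Schwann cell markers had 2 higher (20%) and 4 lower (40%) of 10. NRF2 target genes, which respond to oxidative stress, had 3 higher (20%) and 8 lower (53.3%) of 15. Cholesterol synthesis genes had 2 higher (13.3%) and 7 lower (46.7%) of 15.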
